A study of Mus musculus with 76 samples.

Results

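The respiratory chain genes of the cell nucleus were described in single macrophages sorted from the atrioventricular node (AV node) of the mouse, where the heartbeat is slowed on its way between atria and ventricles. The genes were chosen by symbol, as every row that begins with Nduf followed by A, B, C, S or V, is Sdha to Sdhd, or begins with Uqcr, with Cox and a digit from 4 to 8, or with Atp5. This rule took 82 of the 9235 genes of the table. Of these, 74 encode subunits of the complexes: 36 of complex I, 4 of complex II, 8 of complex III, 11 of complex IV and 15 of complex V. Ndufa4 was counted in complex IV, the complex its protein is found in. The other 8 rows encode no subunit and are described at the end of the results.

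All cells came from wild-type C57BL/6J mice, and there was no treated or control group. The triangle of Koch, which holds the AV node, was cut out and digested. Living cells with low staining for lineage markers (Ter119, Ly6G, NK1.1, CD103, B220, CD90.2 and CD49b), low or intermediate Ly6C, and high F4/80, CD11b and CD45 were sorted, and caught singly on a Fluidigm C1 chip. The 76 libraries were made with SMARTer and Nextera XT chemistry, which reads whole transcripts, has no molecular identifiers and keeps no strand. Because the labels name no animal or chip, the cells are 1 sample: the SD given below is the spread between 75 cells, 1 near-identical pair of libraries having been averaged. Levels are reads per 1000000 (CPM) as deposited, or CPM per kilobase of transcript (per kb) where genes are compared.

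The label macrophage was checked first: 14 of 14 macrophage markers with values were widely detected. Widely detected means values above 0 in 50% of the cells or more (38 of 75). By the same count at 10 CPM 11 of 14 passed, without Fcgr1 (34 cells), Cx3cr1 (23) and Mertk (22). The shares over all genes of the table were 23.9% and, at 10 CPM, 8.88%. Lyz2, which encodes lysozyme, was detected in 75 of 75 cells. Emr1, Itgam and Ptprc encode proteins that the cells were sorted for, so their detection is no independent check of the label. Of 13 cardiomyocyte markers 4 had values (Ttn, Myh6, Tnnt2 and Tnni3), none of them was widely detected, and their summed CPM ran from 0 to 821.8 with a median of 1. Markers of other cell types were not all absent. Of 3 B cell markers with values Ighm was detected in 69 cells (51 at 10 CPM), but Ebf1 in 21 (0 at 10 CPM) and Cd79b in 6 (5 at 10 CPM). Gsn, the 1 fibroblast marker with values, was detected in 40 cells (17 at 10 CPM). The rho of the summed CPM of all subunits was -0.0243 with the summed B cell markers and 0.227 with Gsn, and their part in the results was not tested.

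Oxidative phosphorylation takes electrons from NADH at complex I and from succinate at complex II. It passes them through complex III and cytochrome c to oxygen at complex IV, and uses the proton gradient built on the way to make ATP at complex V. Most subunits are encoded in the nucleus and imported into the mitochondrion, while a few at the heart of complexes I, III, IV and V are encoded by mitochondrial DNA. The promoters of the nuclear genes are known for binding sites of NRF1, of ETS factors such as GABP, and of YY1. In macrophages the chain is known both for supplying ATP and, when electrons flow back through complex I, for making reactive oxygen species. The 13 protein genes of mitochondrial DNA are not analysed here.

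Promoters from RefSeq (GRCm38.p6, from 250 bases before to 50 bases after the start of transcription) were at hand for 68 of the 82 genes, and were searched on both strands for letters of these factors. A core of the NRF1 motif, GCGCA and GCGC with any 1 base between them, was found in 26.5% of the 68 genes, in 13.1% of 6782 genes of the table and in 5.19% of 27025 genes in all. Matches lay in 7 of 32 complex I subunits with a promoter, 2 of 3 of complex II, 1 of 5 of complex III, 1 of 9 of complex IV and 6 of 13 of complex V. The stretches below show such a match in complexes I, IV and V, in capitals, with 20 bases on each side. All lie on the minus strand and clear of annotated exons: Ndufs5 at chr4:123718255-123718304, Cox6a1 at chr5:115349046-115349095 and Atp5h at chr11:115420031-115420080.
Ndufs5: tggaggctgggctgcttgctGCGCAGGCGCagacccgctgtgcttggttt
Cox6a1: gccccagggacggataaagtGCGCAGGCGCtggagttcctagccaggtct
Atp5h: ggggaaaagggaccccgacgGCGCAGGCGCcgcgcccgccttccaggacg

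The match begins 98 bases before the start in Ndufs5, 117 bases before it in Cox6a1 and 141 bases before it in Atp5h. All 3 carry the same 10 letters, GCGCAGGCGC, and the promoter of Cox6a1 holds 2 matches in all. The ETS letters CCGGAAG were found in 25.0% of the members, 23.1% of the genes of the table and 9.93% of all genes, so the members stood near the other genes of the table. Examples from complexes I, III and V follow, with the match in capitals: Ndufb6 at chr4:40279627-40279671, Uqcr11 at chr10:80406861-80406907 and Atp5e at chr2:174464177-174464223, all on the minus strand.
Ndufb6: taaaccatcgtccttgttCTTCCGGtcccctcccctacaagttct
Uqcr11: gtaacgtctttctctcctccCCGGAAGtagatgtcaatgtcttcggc
Atp5e: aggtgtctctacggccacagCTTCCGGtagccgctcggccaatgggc

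The YY1 letters AAGATGGC were found in 14.7% of the members, 6.24% of the genes of the table and 3.19% of all genes. Among subunits with a promoter they lay in 7 of 32 of complex I and 2 of 13 of complex V. They lay in 0 of 3 of complex II, 0 of 5 of III and 0 of 9 of IV, which are few genes. The TATA box letters TATAAA were found in 7.35% of the members, 8.88% of the genes of the table and 15.7% of all genes. At least 1 of the NRF1, ETS and YY1 letters was in 57.4% of the members, against 36.8% of the genes of the table. Subunits with the NRF1 letters had a median level of 109 CPM per kb (17 genes, from 0.466 to 1361), and the 45 without had 112. These medians were close. The 16 subunits with the ETS letters had a median of 159 CPM per kb and the 46 without had 95, with ranges that overlapped. For the YY1 letters the medians were 159.7 in 9 subunits with them and 98.7 in 53 without, again with overlapping ranges. A match is a description of letters, not of binding.

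Subunits were detected in more cells than most genes of the table. Of the 74 subunits 59 (79.7%) were widely detected, as were 23.9% of all genes. By the same count at 10 CPM or more, 29 of 74 (39.2%) passed, against 8.88% of all genes. The second count is called widely detected at 10 CPM below. Over all cells and subunits 34.2% of values were 0, 19.2% lay between 0 and 10 CPM, and 25.2% reached 100 CPM. Of the values of all genes, 64.9% were 0.

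Ribosomal protein genes gave a scale for these counts. Of 78 cytosolic ribosomal protein genes 56 were widely detected and 45 at 10 CPM, while of 74 mitochondrial ribosomal protein genes, which serve translation inside the mitochondrion, 10 and 2 did. The respiratory subunits thus stood near the cytosolic ribosome by the first count and between the 2 lists by the other. All subunits together took 0.961% ± 0.433 of a cell's CPM (SD, n = 75 cells), from 0.331% to 2.42%. Cytosolic ribosomal protein genes took 0.861% ± 0.323 and mitochondrial ones 0.254% ± 0.118. Other genes of near-identical sequence were not sought for the 2 ribosomal lists. The part of such copies in their counts and shares was not tested, so the lists are a rough scale only.

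By complex, 24 of 36 subunits of complex I, 4 of 4 of complex II, 6 of 8 of complex III, 11 of 11 of complex IV and 14 of 15 of complex V were widely detected. At 10 CPM the counts were 7, 1, 4, 7 and 10. Complexes III, IV and V thus kept most of their widely detected subunits at the higher threshold, and complexes I and II did not. In the heatmap of the subunits the rows of complexes IV and V are more often filled than those of complex I.

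**Figure D1:**
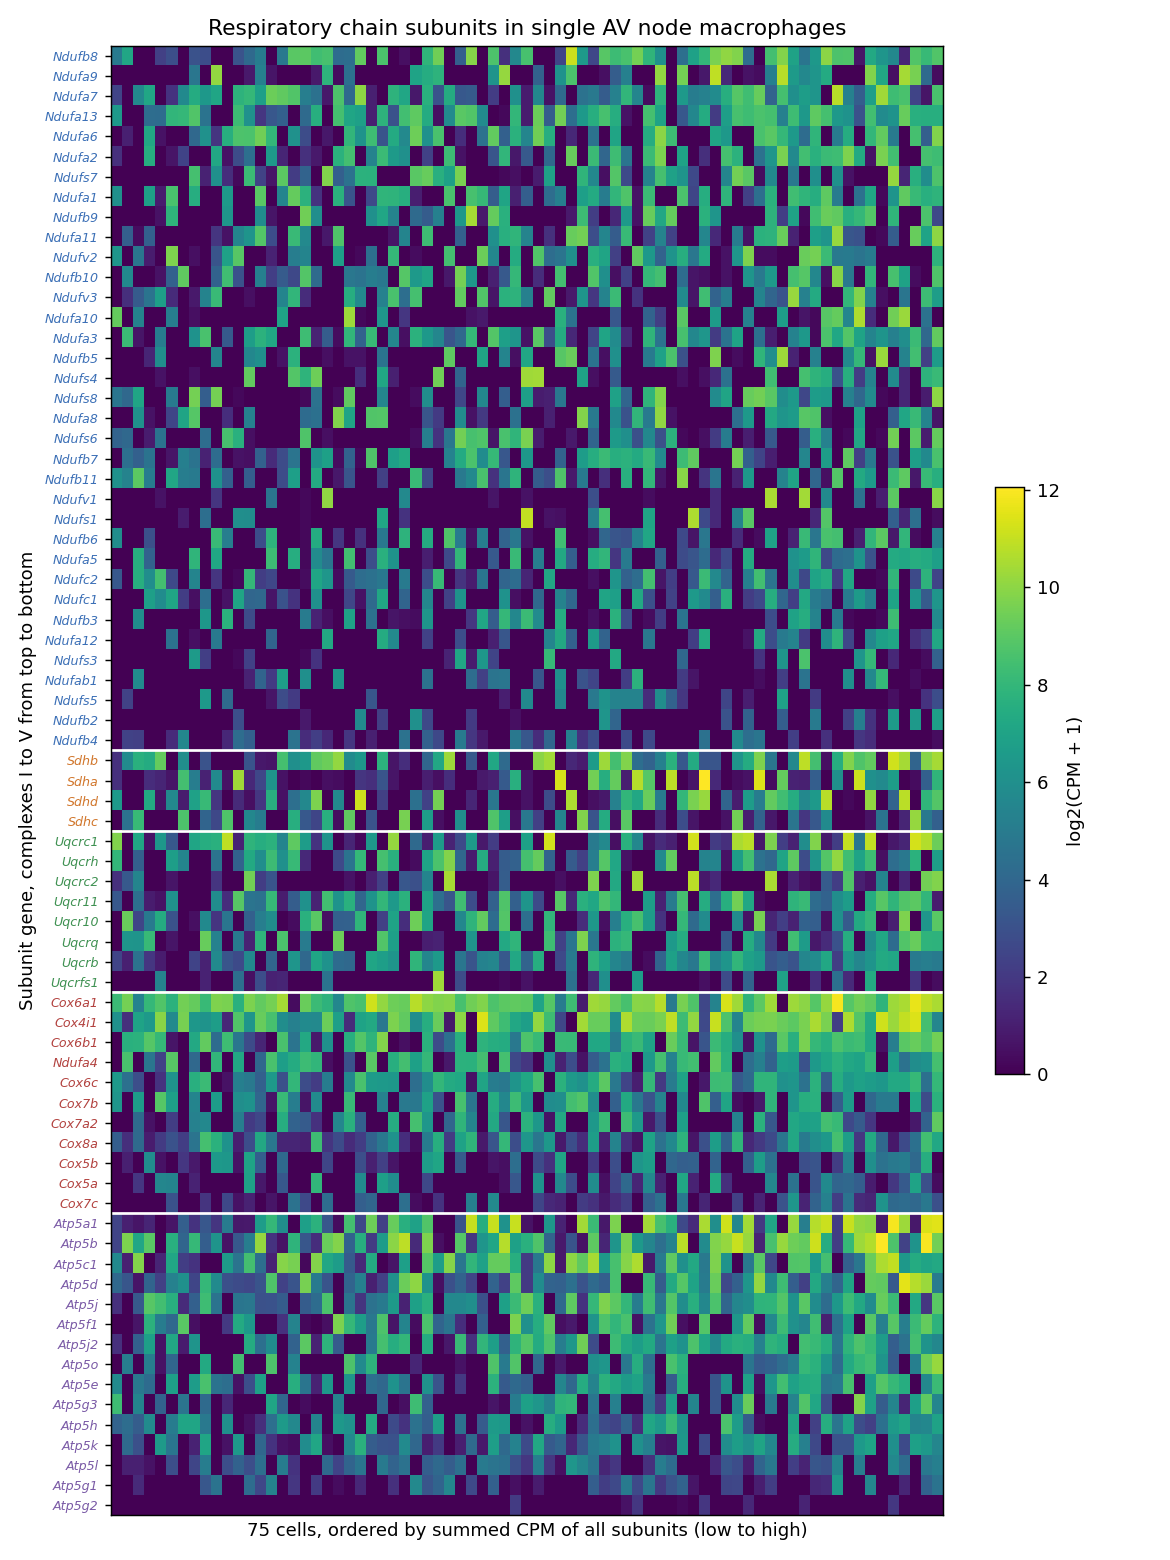
Each row is 1 of 73 subunit genes, grouped by complex and ordered by mean CPM within it, and each column is 1 of the 75 cells, ordered by the summed CPM of all subunits. Colour gives log2(CPM + 1), from 0 in dark violet to about 12 in yellow. Cox6a1 and Cox4i1 are bright in nearly every column, and long genes such as Ndufs1 and Ndufv1 are bright in few columns and dark in most.

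Complex I oxidises NADH through 7 nuclear core subunits, which carry its flavin and iron-sulphur clusters, and 29 accessory subunits. The core was detected less often than the accessory subunits: 3 of 7 core and 21 of 29 accessory subunits were widely detected, and at 10 CPM 0 of 7 and 7 of 29 were. Ndufv1, which binds NADH and FMN, ranged from 0 to 1497.7 CPM with a median of 0, and reached 10 CPM in 9 cells. Its partner in electron entry, Ndufv2, ranged from 0 to 842.4 CPM with a median of 7.8, and reached 10 CPM in 37 cells. The pair reached 10 CPM together in 4 cells (5.33%, interval 1.47% to 13.1%).

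Among the other core subunits Ndufs7 reached 10 CPM in the most cells. Ndufs7, the iron-sulphur protein next to the quinone site, ranged from 0 to 1150.4 CPM with a median of 3.4, and reached 10 CPM in 34 cells. Ndufs8, another iron-sulphur protein of that chain, ranged from 0 to 1035.4 CPM with a median of 0.9 and reached 10 CPM in 32 cells.

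Ndufs1, an iron-sulphur protein of the NADH module, had a median of 0, a highest value of 2015.6 CPM and 14 cells at 10 CPM. Its mean of 72.1 CPM was 45.9 without transcriptome 38, the cell where it was highest. Ndufs3 had a median of 0, a highest value of 393.8 CPM and 11 cells at 10 CPM. No cell had all 7 core subunits at 10 CPM (0 of 75, an upper limit of 4.8%), 1 cell had all 7 above 0, and 6 cells had none at 10 CPM.

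The 3 subunits of highest mean CPM in complex I were accessory subunits. The median over subunits of the mean was close in the 2 classes, at 98.6 CPM for the core and 100 for the accessory subunits. Ndufb8, a subunit of the membrane arm, ranged from 0 to 2177.9 CPM with a median of 49.2 (mean 242 ± 365, SD, n = 75 cells) and reached 10 CPM in 49 cells. Ndufa7 ranged from 0 to 1767.0 CPM with a median of 47.5 and reached 10 CPM in 53 cells. Per length these were the highest of the complex, at 356 ± 537 and 320 ± 566 CPM per kb.

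Ndufa9, which stabilises the joint between the arms, had a mean of 171 CPM but a median of 0.3, with 29 cells at 10 CPM and a highest value of 1950.6. Ndufb5 was alike in this, with a median of 0.4, a highest value of 1255.2 CPM and 28 cells at 10 CPM. Both were among the 3 widely detected subunits of highest coefficient of variation (SD over mean), at 2.41 and 2.45.

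The lowest subunits of complex I were Ndufb4 and Ndufb2, both of the membrane arm. Ndufb4 ranged from 0 to 53.2 CPM with a median of 0 and reached 10 CPM in 14 cells. Ndufb2 ranged from 0 to 105.9 CPM with a median of 0 and reached 10 CPM in 11 cells. Per length the subunits of complex I ran from 6.02 CPM per kb for Ndufb4 to 356 for Ndufb8, a 59.1-fold range.

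By position in the complex, 4 of 8 subunits of the NADH module, 6 of 8 of the quinone module and 14 of 20 of the membrane arm were widely detected. Their median levels were 61.5, 123 and 102 CPM per kb.

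Transcript length moved with detection in complex I. Over its 36 subunits Spearman's rho between transcript length and the number of cells above 0 was -0.492, over all 74 subunits it was -0.218, and over 9094 genes of the table with a length it was 0.0074. Between length and coefficient of variation rho was 0.537, 0.464 and 0.187. These are descriptions across genes, which share the same cells and libraries, and the part of length in the low detection of the core was not tested.

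**Figure D2:**
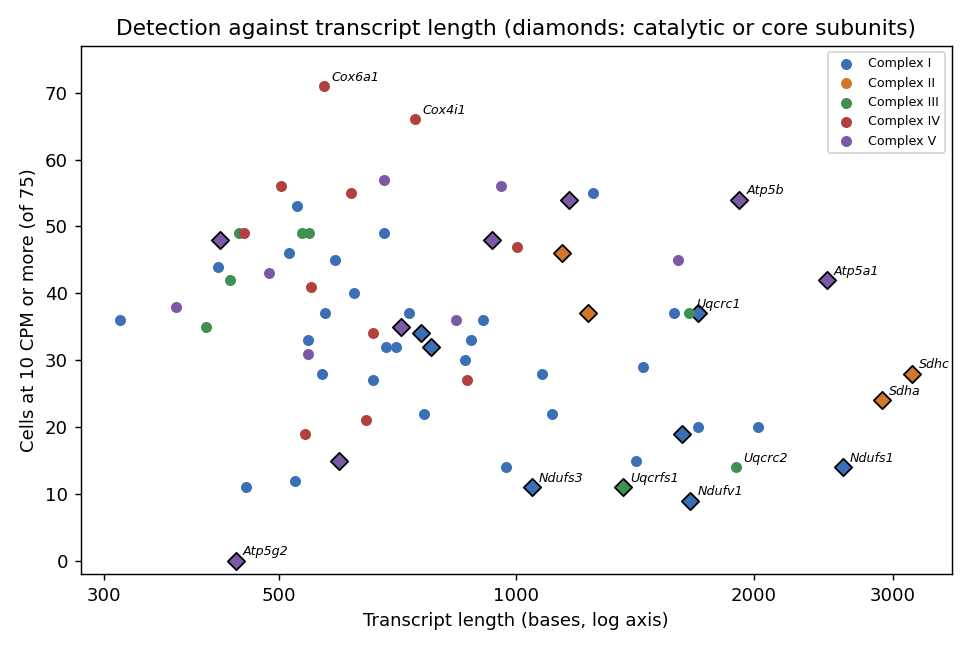
Each point is 1 subunit gene, with the length of its transcript in bases on a log axis and the number of the 75 cells in which it reached 10 CPM. Colours mark the complexes and diamonds the catalytic or core subunits. Ndufs1, Ndufv1 and Ndufs3 lie at 14, 9 and 11 cells, and Cox6a1 and Cox4i1 lie at 71 and 66.

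Complex II is succinate dehydrogenase, the enzyme shared by the chain and the citric acid cycle. All of its subunits are nuclear, and each was above 0 in 48 to 61 cells. Sdhb, the iron-sulphur subunit, ranged from 0 to 2318.6 CPM with a median of 55.7 (mean 302 ± 497) and reached 10 CPM in 46 cells. Sdha, the flavin subunit, ranged from 0 to 4150.9 CPM with a median of 1.1 (mean 273 ± 744) and reached 10 CPM in 24 cells. Similar means thus lay over different patterns. Sdhb reached 100 CPM in 30 cells and 1000 CPM in 8, and Sdha did so in 16 and 7 cells, with the higher top value. The coefficient of variation of Sdha, 2.72, was the highest among widely detected subunits.

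The membrane anchors, which bind ubiquinone and haem, were Sdhd and Sdhc. Sdhd ranged from 0 to 2250.5 CPM with a median of 5.9 and reached 10 CPM in 37 cells. Sdhc ranged from 0 to 1147.4 CPM with a median of 1.8 and reached 10 CPM in 28 cells. All 4 subunits reached 10 CPM in 3 cells (4.00%, interval 0.833% to 11.2%), all 4 were above 0 in 24 cells, and none reached 10 CPM in 5 cells.

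Sdha and Sdhb reached 10 CPM together in 15 cells, of the 24 and 46 in which each did. Sdhc and Sdhd did so in 9, of 28 and 37. Spearman's rho over the 75 cells was 0.0209 for Sdha with Sdhb and -0.230 for Sdhc with Sdhd. In sparse values such as these a weak correlation is not a finding. The summed CPM of complex II ran from 0.8 in transcriptome 3 to 5332.8 in transcriptome 22.

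Complex III passes electrons from ubiquinol to cytochrome c. Of its 8 subunits taken by the symbol rule, the Rieske iron-sulphur protein encoded by Uqcrfs1, which is catalytic, was detected in the fewest cells: it ranged from 0 to 1304.6 CPM with a median of 0, was detected in 26 cells and reached 10 CPM in 11. Its mean of 25.7 CPM was 8.42 without transcriptome 9, which alone held 67.7% of its summed CPM. Uqcrc1, a core protein of the matrix side, ranged from 0 to 2521.5 CPM with a median of 8.9 and reached 10 CPM in 37 cells. Uqcrc2, the other core protein, ranged from 0 to 1795.2 CPM with a median of 0 and reached 10 CPM in 14 cells.

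Uqcrc1 and Uqcrc2 reached 10 CPM together in 9 cells (rho 0.081). The 5 small subunits of complex III were all widely detected, 4 of them at 10 CPM. Uqcrh, the hinge protein, ranged from 0 to 1111.0 CPM with a median of 23.3 and reached 10 CPM in 49 cells. Uqcrb, which binds near the quinone site, ranged from 0 to 287.4 CPM with a median of 29.3 and reached 10 CPM in 49 cells, and it has 3 near-identical copies.

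Per length the median of the small subunits was 261 CPM per kb, that of the core proteins 138, and Uqcrfs1 stood at 18.9 ± 112. The spread between cells was larger than the mean for each of these genes.

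Complex IV, cytochrome c oxidase, hands the electrons to oxygen. Its catalytic subunits are made in the mitochondrion, and its nuclear subunits stabilise and regulate it. Cox6a1 was the most widely detected subunit at 10 CPM in the whole chain: it ranged from 0 to 3809.1 CPM with a median of 591.1 (mean 777 ± 709), was detected in 74 cells and reached 10 CPM in 71 (94.7%, interval 86.9% to 98.5%). Cox4i1, the regulatory subunit that binds ATP, ranged from 0 to 2758.2 CPM with a median of 379.7 (mean 576 ± 668) and reached 10 CPM in 66 cells. Cox6b1, which joins the monomers of the dimer, ranged from 0 to 901.5 CPM with a median of 171.0 and reached 10 CPM in 55 cells.

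Cox6a1 and Cox4i1 reached 10 CPM together in 63 cells, and the rho between them was -0.021, so both were present in most cells and their levels were not correlated. Cox6a1, Cox6b1 and Cox6c had the lowest coefficients of variation of the widely detected subunits, at 0.912, 1.07 and 1.10. The median was 1.87 over subunits and 4.00 over all genes of the table. Cox6c ranged from 0 to 522.1 CPM with a median of 70.2, and it has 2 near-identical copies.

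The subunits Cox5a and Cox5b, which sit on the matrix side, were low. Cox5a ranged from 0 to 242.0 CPM with a median of 0.7 and reached 10 CPM in 21 cells. Cox5b ranged from 0 to 181.1 CPM with a median of 2.2 and reached 10 CPM in 27 cells. Cox4i1, Cox5a and Cox5b, which bind close together in the enzyme, reached 10 CPM together in 7 cells.

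Cox7c, a small membrane subunit, was the lowest of complex IV, with a range of 0 to 79.8 CPM, a median of 1.3 and 19 cells at 10 CPM. Ndufa4 ranged from 0 to 567.8 CPM with a median of 63.0 and reached 10 CPM in 49 cells. Cox8a was the only one of the 82 genes above 0 in all 75 cells, with a lowest value of 0.3, a median of 16.1 and a highest value of 368.7 CPM, yet it reached 10 CPM in 41. Cox7a2, the isoform found in most tissues, ranged from 0 to 550.8 CPM with a median of 6.1 and reached 10 CPM in 34 cells. The partner isoforms Cox4i2, Cox6a2, Cox6b2, Cox7a1 and Cox8b, several of them known from heart muscle, are not analysed here.

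Complex V is the ATP synthase. The 5 subunits of its catalytic head and central stalk were all widely detected, and all of them at 10 CPM as well. Atp5a1 (subunit alpha) ranged from 0 to 3862.7 CPM with a median of 58.9 (mean 532 ± 871) and reached 10 CPM in 42 cells. Atp5b (subunit beta, which holds the catalytic sites) ranged from 0 to 4284.6 CPM with a median of 138.7 (mean 519 ± 832) and reached 10 CPM in 54 cells. Atp5c1 (subunit gamma, the rotor shaft) ranged from 0 to 1965.6 CPM with a median of 101.7 (mean 312 ± 441) and reached 10 CPM in 54 cells.

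The subunits alpha and beta alternate in the head, yet Atp5a1 and Atp5b reached 10 CPM together in 32 cells (42.7%, interval 31.3% to 54.6%) and neither did in 11. The rho between them was 0.189. Together with Atp5c1 they made 50.2% ± 27.5 of the CPM of complex V, from 0.285% to 96.3% between cells.

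The c ring, which turns as protons pass, is built from 1 protein encoded by 3 genes that differ in their import signals. Atp5g3 ranged from 0 to 920.1 CPM with a median of 3.0 and reached 10 CPM in 35 cells. Atp5g1 ranged from 0 to 91.7 CPM with a median of 0.6 and reached 10 CPM in 15 cells. Atp5g2 ranged from 0 to 3.3 CPM with a median of 0, was detected in 8 cells and reached 10 CPM in 0 (an upper limit of 4.8%).

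Atp5g3 was thus the highest of the 3, at 95.1 ± 220 CPM per kb against 12.1 ± 25.5 for Atp5g1 and 0.466 ± 1.60 for Atp5g2. At least 1 of the 3 reached 10 CPM in 43 cells, and Atp5g1 and Atp5g3 did so together in 7. Atp5g1 has 1 near-identical copy, Atp5g2 has 2 and Atp5g3 has none, and the part of these copies in the low values was not tested.

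Reads from near-identical copies bear on other members too. In all 23 members, 22 of them subunits, had at least 1 such copy, from 1 to 8 (Atp5l). The 22 subunits had a median level of 62.7 CPM per kb and the other 52 had 139.5. The levels of genes with copies are uncertain, since no source used here says how reads that match several places were counted, and the part of the copies in the lower median was not tested. The subunits of lowest mean CPM, up to 15.2 CPM, were Atp5g2, Ndufb4, Atp5g1, Cox7c, Ndufb2, Ndufs5, Atp5l and Ndufab1. All of these except Ndufb2 have copies. Uqcrfs1, the lowest of complex III, has none. The part of the copies in these low values was not tested either.

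Because strand was not kept, reads of an overlapping gene on the other strand cannot be told apart. An exon of 22 members overlaps such a gene, among them Cox4i1 (with Emc8), Atp5a1 (with Haus1) and Ndufb5 (with Mrpl47).

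The complexes were then compared in each cell by the mean CPM per kb over their subunits. Complex IV was the highest at 301 ± 173 (SD, n = 75 cells), followed by complex III at 181 ± 120, complex II at 142 ± 156, complex V at 137 ± 93.7 and complex I at 117 ± 61.5. Within cells, complex IV stood above complex I in 70 of 75 cells, above V in 66, above II in 61 and above III in 60. The means of all complexes overlapped within 1 SD. Among neighbours lower in the order, II stood above III in 26 cells, II above V in 31 and I above V in 30. By the median over cells complex IV was again highest at 269 CPM per kb, followed by III at 150, V at 121, I at 108 and II at 74.2, so complex II moved to the last place. With the union of all exons as the length, the means were 195 for IV, 103 for II, 96.5 for III, 68.9 for I and 60.6 for V, so the order below complex IV depends on the summary and the length used.

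In complex IV, Cox6a1 and Cox4i1 together made 62.0% ± 20.5 of the CPM. Without them its mean was 130 ± 73.3 CPM per kb, and it stood above complex I in 42 cells, V in 39, II in 40 and III in 31. The other complexes kept their highest genes in this comparison, so it shows only how much of the level of complex IV that pair held. The median over subunits within a cell had a mean of 71.3 ± 81.3 CPM per kb in complex IV, 54.9 ± 108 in II, 45.2 ± 75.7 in III and 37.9 ± 53.1 in V, and it was lowest in I, with a median over cells of 0.865. It was highest for complex IV in 27 cells, for II in 19, for III in 15, for V in 14 and for I in 0, and in complex II it rests on 4 genes.

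**Figure D3:**
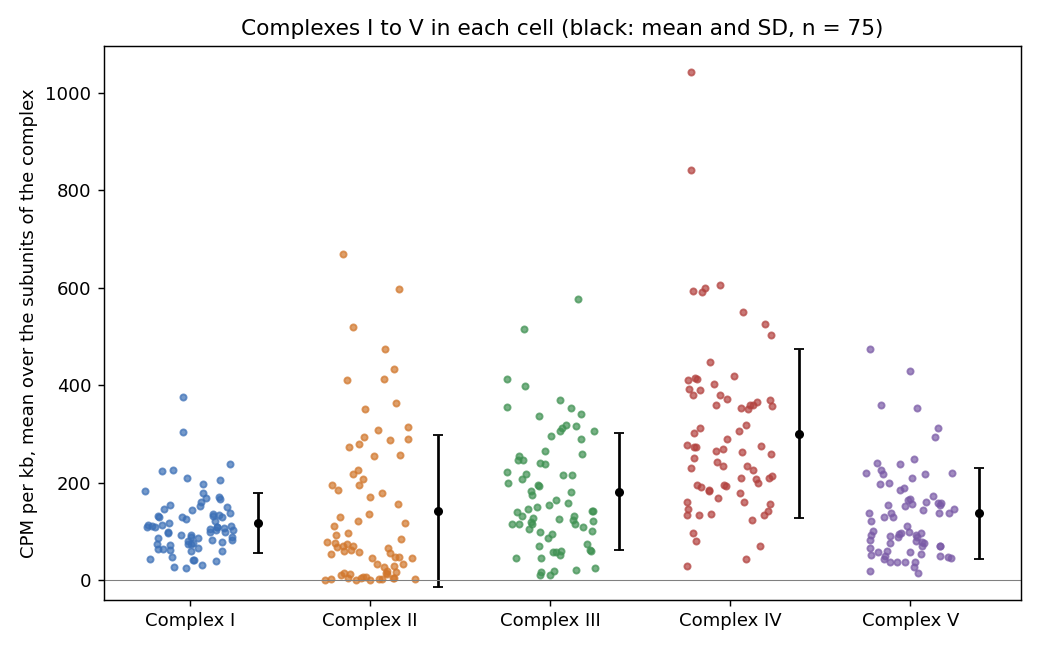
Each coloured point is 1 of the 75 cells, with the mean CPM per kb over the subunits of a complex on the vertical axis, and the black point and bar are the mean and SD over cells. Complex IV lies highest with a mean of 301, and the other 4 means lie between 117 and 181 with wide overlap.

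Levels of single subunits spread widely within each complex. The medians over subunits of the mean level were 94.1 CPM per kb for complex I, 137 for II, 226 for III, 118 for IV and 112 for V, against 12.3 over all genes of the table with a length. Within complex IV the levels spanned 89.9-fold, from Cox7c at 15.1 to Cox6a1 at 1361 ± 1242 CPM per kb. Within complex II, where each subunit is present once in the enzyme, they spanned 8.54-fold, from Sdhc at 31.0 to Sdhb at 265. The 10 genes of highest mean CPM held 42.6% of the CPM of all 74 subunits.

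**Figure D4:**
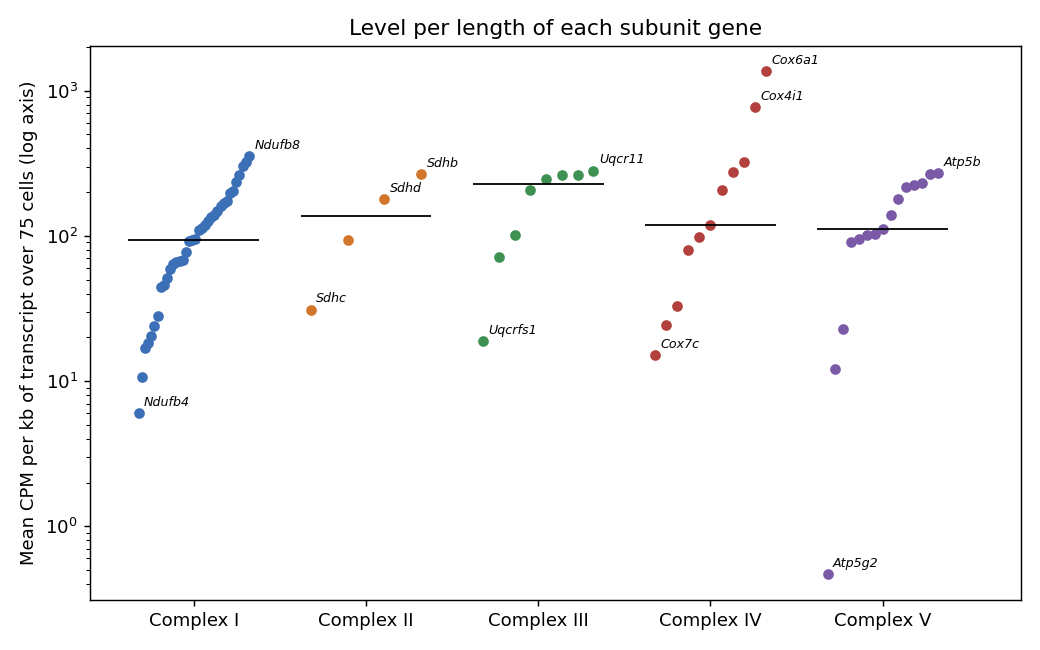
Each point is the mean CPM per kb of 1 subunit gene over 75 cells, on a log axis, sorted within its complex, and the lines are the medians over subunits. The lines lie between 94.1 and 226, while single genes run from Atp5g2 at 0.466 to Cox6a1 at 1361.

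By summed CPM a cell held 3295 ± 1708 CPM of complex I, 894 ± 987 of complex II, 1034 ± 946 of complex III, 2040 ± 1174 of complex IV and 2349 ± 1877 of complex V. These sums also depend on the number and length of the genes. As shares of all respiratory chain CPM they were 34.7% ± 11.7, 9.08% ± 9.11, 11% ± 8.84, 22.1% ± 9.77 and 23.0% ± 11.1. Complex II varied most between cells, with a coefficient of variation of 1.10, and complex I least, with 0.518, the complex with the fewest genes and that with the most.

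Cells differed in the whole chain. The summed CPM of all subunits was 9613 ± 4330, from 3305 in transcriptome 26 to 24165 in transcriptome 16. A cell had 28 to 70 subunits above 0, with a median of 47, and 19 to 59 at 10 CPM, with a median of 32. Transcriptome 16 had the most subunits by both counts (70 and 59) and transcriptome 5 the fewest (28 and 19). Genes above 0 over the whole table were 4117 in transcriptome 16, 2438 in 26 and 2324 in 5, where the range over all cells was 2324 to 4382.

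Transcriptome 8, with an estimated 283530 reads among the shallowest libraries, held the highest value of 7 subunits, among them Cox6a1 and Ndufa7. In a library of that depth 10 CPM stands for only a few reads.

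Scores of the complexes were correlated over cells to differing degrees. Spearman's rho over 75 cells was 0.612 between complexes I and IV, 0.601 between I and V, and 0.545 between IV and V. With complex II it was 0.333 for I, 0.244 for III, 0.161 for IV and 0.406 for V. With complex III it was 0.363 for I, 0.329 for IV and 0.387 for V. The scores of complexes I, IV and V, which have the most subunits, were thus the most alike.

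The cells in these correlations share library depth and detection, and the score over all subunits had a rho of 0.642 with the number of genes above 0 in the cell. With ranks adjusted for that number, rho was 0.430 between I and IV, 0.431 between I and V and 0.321 between IV and V, and the 10 pairs ran from -0.0585 (II and IV) to 0.431. In the 37 cells with fewer genes the 10 pairs had a median rho of 0.263, and in the 38 with more genes 0.408. The part of detection in the correlations was not tested further.

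Pairs of single subunits were weakly correlated. The median rho was 0.0749 over 824 pairs within a complex and 0.0703 over 1877 pairs between complexes, which are close to each other. Over all pairs of 8351 genes it was 0.0111, within cytosolic ribosomal proteins 0.0935 and within mitochondrial ones 0.0233. By complex the median was 0.0715 in I, -0.000399 in II, 0.0455 in III, 0.115 in IV and 0.10 in V. The pair of highest rho, Ndufb9 of complex I and Atp5a1 of complex V, had 0.492, with 26 cells where both reached 10 CPM.

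The genes outside the chain whose pattern was most like its score over 75 cells were sought among 8271 genes above 0 in at least 8 cells, whose rho had a median of 0.0883 and a 95th percentile of 0.295. The 10 highest were Rpl9-ps7 (0.515), Ppia (0.487), Rnf111 (0.482), Prdx5 (0.461), Rpn2 (0.452), Gtf2h1 (0.449), Glo1 (0.447), 1810035L17Rik (0.446), Crip1 (0.446) and Nhsl2 (0.445). With ranks adjusted for genes above 0, these 10 ran from 0.281 (Nhsl2) to 0.533 (Rpl9-ps7). Ppia, the cytosolic cyclophilin A, was above 0 in 74 cells, and Prdx5, a peroxiredoxin found in mitochondria among other places, in 69. Rpl9-ps7 is a pseudogene above 0 in 36 cells and at 10 CPM in 0, so its rank rests on very low values. Gtf2h1 was above 0 in 16 cells (7 at 10 CPM) and Rnf111 in 27 (13 at 10 CPM), so these were sparse too. The lowest unadjusted rho among the 8271 genes was that of Cx3cr1, the fractalkine receptor, at -0.400.

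Other genes of the pathway were counted from lists. Of 5 components outside the symbol rule all had values and 3 were widely detected. Atpif1, the inhibitor of the ATP synthase, ranged from 0 to 969.3 CPM with a median of 137.5 and reached 10 CPM in 64 cells. 2010107E04Rik, a small subunit of the ATP synthase, ranged from 0 to 666.6 CPM with a median of 18.1 and reached 10 CPM in 39 cells. Usmg5, another small component of that enzyme, ranged from 0 to 100.9 CPM with a median of 1.2 and reached 10 CPM in 20 cells.

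Cyc1 and Cycs, the rest of this list, had low values. Cyc1, the cytochrome c1 subunit of complex III, ranged from 0 to 922.6 CPM with a median of 0 and reached 10 CPM in 12 cells. Cycs, cytochrome c, ranged from 0 to 8.6 CPM, was detected in 10 cells and reached 10 CPM in 0. Near-identical copies were sought only for genes of the symbol rule, so the part of copies in these low values was not tested.

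Of 30 assembly factors with values 4 were widely detected, and 0 at 10 CPM. The most often detected was Cox17, a copper chaperone for complex IV, above 0 in 48 cells, followed by Ccdc56 in 45 and by Higd2a and Tmem126a in 38 each. Of all genes 23.9% were widely detected.

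Of 24 mitochondrial carriers, channels and redox defence genes 14 were widely detected. Ucp2, an uncoupling protein of the inner membrane, ranged from 5.2 to 7226.8 CPM with a median of 1375.1 and reached 10 CPM in 73 cells. Slc25a5, which exchanges ADP for ATP, ranged from 0 to 1886.2 CPM with a median of 317.7 and reached 10 CPM in 65 cells. Sod1, the cytosolic superoxide dismutase, was above 0 in 74 cells with a median of 351.4 CPM, and Prdx5 in 69 with a median of 12.8 CPM.

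Of 26 genes of the citric acid cycle and pyruvate entry 7 were widely detected, a share near the 23.9% of all genes. At 10 CPM 2 of the 26 were, against 8.88% of all genes. The most often detected were Idh3g (64 cells, 29 at 10 CPM), Idh1 (63 and 41), Mdh1 (55 and 37) and Mdh2 (53 and 40). Of these Idh1 and Mdh1 encode cytosolic enzymes. Of 16 glycolytic genes 8 were widely detected, and 6 at 10 CPM. They were led by Aldoa (74 cells, 62 at 10 CPM), Ldha (73 and 46), Pkm2 (63 and 43) and Gapdh (63 and 37). Of 17 biogenesis regulators 2 were widely detected, namely Nrf1 (40 cells, 11 at 10 CPM) and Ssbp1 (38), with Polg2 in 37 and Polrmt in 22 cells. Yy1 was above 0 in 20 cells and Gabpa, which encodes an ETS factor, in 10.

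The score over all subunits had a rho of 0.585 with that of the carriers, channels and redox defence genes, 0.513 with cytosolic and 0.467 with mitochondrial ribosomal proteins, and 0.396 with the citric acid cycle. With ranks adjusted for genes above 0 these were 0.447, 0.387, 0.180 and 0.267. For glycolysis rho was 0.306, and 0.0446 when adjusted. With the scores of MHC class II (-0.0584), tissue-resident (0.0932) and monocyte-derived genes (0.162) rho was weak.

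Cardiomyocytes are rich in mitochondria, so their markers are given beside the levels of the chain. The summed CPM of the 4 markers with values had a rho of 0.264 with the summed CPM of all subunits, and of 0.315 with the score over all subunits. The 62 cells with no marker at 10 CPM had a sum of 9164 ± 4169 CPM over subunits, from 3305 to 24165, and the 13 cells with a marker had 11753 ± 4608, from 6352 to 20564. The ranges overlapped, and the part of cardiomyocyte transcripts in these sums was not tested.

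The 8 rows that the symbol rule took but that encode no subunit were detected in few cells, except Cox7a2l. Cox7a2l, a factor that joins complexes III and IV into supercomplexes, ranged from 0 to 632.5 CPM with a median of 9.6, was detected in 53 cells and reached 10 CPM in 36, and it has 1 near-identical copy. The other 7 were above 0 in 6 to 18 cells, with medians of 0.

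Of the complex I assembly factors, Ndufaf2 was above 0 in 18 cells, Ndufaf4 in 13, Ndufaf3 in 7 and Ndufaf1 in 6. Cox4nb, now named Emc8 and part of a complex of the endoplasmic reticulum, was above 0 in 13 cells, and its rho with its overlapping neighbour Cox4i1 was -0.00512. Atp5sl, now Dmac2, was above 0 in 12 cells and Atp5s in 8. For Ndufaf1, Ndufaf2, Ndufaf3, Atp5s and Atp5sl leaving out the highest cell lowered the mean by more than 1.5-fold, from 14.0 to 1.86 CPM in Ndufaf1 and from 17.8 to 3.40 in Atp5sl.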

How the data were processed

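The 76 libraries are single macrophages of 1 group. Neither animal nor batch is named in the labels, which makes the cells 1 sample, and no test was run. The authors deposited CPM (reads per 1000000), rounded to 1 decimal, relative to the reads in the 9235 genes of the table. The build mm9, the aligner STAR 2.3.0 and the counter HTSeq 0.6.0 are named in the submitters' processing notes. The annotation, and how reads that match several places were handled, are not given in the sources used here. No gene of the table was above 0 in fewer than 6 cells. Each column summed to 1000000 CPM within rounding.

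Transcriptomes 13 and 19 had a Pearson correlation of 0.978 over log2(CPM + 1), against at most 0.421 for any other pair, and were averaged, which left 75 cells. Depth was estimated in each library from the step between its low CPM values. The estimates ranged from 259550 to 5869674 reads, with a median of 2124875. In the poorest library 61.7% of low values were whole multiples of the step within 0.051 CPM, and 8 of 9 simulated depths were recovered within 1%, so these depths are rough. Intervals are exact 95% Clopper-Pearson intervals and cover the sampling of cells only.

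Transcript lengths were those of the shortest principal transcript in GENCODE M21, matched by symbol. Near-identical copies of the members were sought with BLAST 2.17.0, as other genes whose transcripts match at least 80% of the coding sequence at 95% identity or more. A complex score is the mean over subunits above 0 in at least 8 cells of standardised log2(CPM + 1), with a pseudocount of 1. Scores were tested on simulated data with a known shared factor and no added zeros. That test does not show how the scores behave in values as sparse as these. Python 3.11.15, scipy 1.17.1 and pandas 2.3.3 were used. The members and lists were chosen with earlier results of these data known. Named genes are, for each complex, the 3 subunits of highest and the 2 of lowest mean CPM, the core subunits, the isoform pairs, the rows that are no subunit, the 3 highest and 3 lowest coefficients of variation among genes above 0 in at least 50% of cells, the 4 most often detected genes of each list, and the 10 genes most like the score over all subunits. Other genes were named after their values were seen. For each complex the promoter stretch shown is that of the subunit of highest mean CPM whose match lies clear of annotated exons. The values of 1 gene are not reported here, though counts and sums over genes include it.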

Additional observations from a re-analysis of the deposited data

How the results depend on the processing

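No paired analysis was possible because there is 1 group and no test. Without the cells in the lowest quartile by genes detected, the correlation of complexes I and II was 0.475. With a threshold of 10 CPM the counts of subunits in at least 50% of cells were 7 for complex I, 1 for II and 7 for IV. With a pseudocount of 10 CPM the correlation of II and IV was 0.0572. With ranks adjusted for genes detected, the correlations with complex I were 0.187 for II, 0.176 for III, 0.430 for IV and 0.431 for V. Those of II were 0.115 with III, -0.0585 with IV and 0.275 with V, those of III were 0.106 with IV and 0.201 with V, and that of IV and V was 0.321. The median over all gene pairs was then -0.00112. For these the cause was not tested. Counting both near-identical libraries and moving Ndufa4 to complex I were applied to counts, sums and correlations. Thinning to 250000 reads was applied to the counts only, and leaving out the 10 most abundant genes to the sums only. Setting values below 10 CPM to 0 was applied to sums and correlations. Pearson's correlation and a detection minimum of 38 cells were applied to correlations, and other transcript lengths to the CPM per kb. None of these moved a complex value by more than 1 SD or a count by more than 1.5 times, and none reversed a correlation. That SD is the spread between cells. For the sum of complex II it (987 CPM) exceeds the mean (894), so staying within it shows little. With values below 10 CPM set to 0 the correlation of II and IV was 0.0702. With the union of exons as length the mean CPM per kb was 68.9, 103, 96.5, 195 and 60.6 for complexes I to V, over 1.5 times lower in I, III, IV and V, with another order below IV. Thinned, the counts of widely detected subunits were 17, 3, 6, 8 and 13 for complexes I to V. The alternative lengths and complex IV without Cox6a1 and Cox4i1 were chosen after seeing the data. A value of 0 in a cell means that no read was listed there and does not show that a gene was silent.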
